A study of Mus musculus with 16 samples.

Results

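The genes of sterol and lipid synthesis were followed across memory CD4+ T cells of mice that lack HP1α or HP1γ, the proteins that bind the repressive histone mark H3K9me3. The 33 genes were chosen by name, out of 56748 genes in the deposited tables, and all 33 passed the filter on low counts in every comparison. They comprise 7 genes of the mevalonate steps, 11 genes of the squalene and sterol steps, 5 genes of the SREBP system and its control, 5 genes of LXR, sterol efflux and transport, and 5 genes of fatty acid synthesis. The choice was made by name and role, with earlier results of these data known.

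RNA-Seq was performed on memory cells sorted from the spleen as CD4+CD25low/-CD62L-CD44high, with 4 samples in each of 4 groups and 16 samples in all. HP1α KO mice lacked HP1α in every tissue, since the floxed Hp1a allele had been excised with CMV-cre, and they were compared with WT littermates. HP1γ KO mice carried Cd4-cre on floxed Hp1g alleles, so that deletion took place in the T cell lineage, and their WT littermates were homozygous for the same floxed allele without Cre. The effect of Cre and the effect of losing HP1γ cannot be told apart in this design. The background of both lines was a mix of 129/Sv and C57BL/6. The mice were sex-matched young adults, and the study states that it used males for its sequencing. The labels give no age for single samples. The WT groups of the lines therefore differ in the floxed Hp1g allele and in any background segment, litter or handling that goes with a line, and these cannot be told apart.

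Cells make cholesterol from acetyl-CoA through mevalonate, farnesyl diphosphate, squalene and lanosterol. SREBP2 and SREBP1 switch on the genes of sterol and fatty acid synthesis after SCAP has escorted them out of the endoplasmic reticulum, and INSIG proteins hold SCAP back when sterols are plentiful. Oxysterols act in the other direction through LXR, which induces the export pumps ABCA1 and ABCG1 and the ubiquitin ligase MYLIP. T cells are known to raise this program when they are activated and divide, since new membranes need sterols and fatty acids.

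The estimated counts deposited by the authors summed to between 26694045 and 40199637 per sample. Transcripts of the targeted genes were measured as a check of the labels. Levels of single genes are CPM, in which the count of a gene is scaled to the depth of its sample, here with TMM factors from all 16 samples. A gene counts as called at an adjusted p under 0.05 by edgeR's quasi-likelihood test, and SE is the standard error of the log2 fold change. Cbx5, which encodes HP1α, was at 29.0, 27.9, 23.0 and 29.2 CPM in HP1α KO and at 38.1, 54.6, 35.6 and 33.9 CPM in the WT littermates, with a log2 fold change of -0.58 (SE 0.145, adjusted p = 0.946). Cbx3, which encodes HP1γ, was at 49.3, 45.8, 45.4 and 47.4 CPM in HP1γ KO and at 91.9, 90.3, 73.4 and 81.7 CPM in the WT littermates, with a log2 fold change of -0.82 (SE 0.0790, adjusted p = 0.00150). The KO samples did not overlap their WT littermates for either transcript. Cbx5 was also at 19.7, 22.4, 28.5 and 29.7 CPM in HP1γ KO. Between the KO groups its log2 fold change by edgeR was 0.096 (SE 0.130, adjusted p = 0.601). Its level thus set the HP1α KO samples apart from their littermates but not from HP1γ KO. Summed over 5 CD4 T cell genes, TPM lay between 3771 and 4332 in every sample, whereas 5 B cell genes summed to at most 20.7 TPM. In the same way 2 CD8 genes summed to at most 18.0 TPM and 6 myeloid genes to between 35.4 and 129 TPM. For 3 NK cell genes the sum was 24.0 to 51.3 TPM, and for the 2 regulatory T cell genes Foxp3 and Il2ra it was 49.8 to 112 TPM. Erythroid transcripts varied most, from 56.3 TPM summed over 5 genes in an HP1α-line WT sample to 4210 TPM in an HP1γ KO sample. In bulk samples, fewer cells of a type and less RNA per cell cannot be told apart.

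Genes are compared with each other in TPM, which is scaled by transcript length. The mean over the 16 samples ranged from 0.744 TPM for Scd1 to 264 TPM for Nr1h2, which encodes the oxysterol receptor LXRβ. Nr1h2, Srebf2, Insig1 and Srebf1, all regulators, were the 4 highest of the 33. Srebf2, which encodes SREBP2, had a mean of 169 TPM and a range over samples of 149.8 to 195 TPM. Insig1 had a mean of 115 TPM, Srebf1 of 80.9 TPM and Scap of 58.8 TPM. Insig2, the second retention protein, had a mean of 8.31 TPM and lay below Insig1 in every sample, with 14.9 TPM as its highest value against 77.2 TPM as the lowest of Insig1.

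Among the 7 mevalonate genes the means ran from 6.96 TPM for Idi1, the isomerase of the isoprenoid units, to 32.9 TPM for Fdps, which makes farnesyl diphosphate. Hmgcs1, the synthase at the entry of the pathway, was at 14.9 TPM, between Pmvk at 15.6 TPM and Mvk at 13.1 TPM. The 11 squalene and sterol genes ran from 5.99 TPM for Hsd17b7, a ketoreductase, to 35.9 TPM for Cyp51, the lanosterol demethylase. Ebp, the sterol isomerase, followed at 34.7 TPM, then Sc5d at 25.2 TPM and Dhcr7, the reductase of 7-dehydrocholesterol, at 23.0 TPM. Sqle, the squalene epoxidase, was at 9.86 TPM. All 18 enzymes of both segments were detected in every sample, and their lowest single value was 3.78 TPM, for Hsd17b7 in an HP1α KO sample.

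The export pumps differed in level, with Abcg1 at a mean of 26.2 TPM and Abca1 at 3.02 TPM. Mylip was at 24.1 TPM and Stard4, which encodes a cholesterol carrier, at 17.1 TPM. In fatty acid synthesis, Fasn stood at 61.2 TPM, Acaca, the carboxylase before it, at 9.39 TPM and the elongase Elovl6 at 4.78 TPM. The desaturases were split between Scd2 at 32.8 TPM and Scd1 at 0.744 TPM. Scd1 was the lowest of the 33 genes and the most variable, with 0.156 TPM in its lowest sample and 2.87 TPM in its highest. The group means of Scd1 also depended on the unit, since HP1α KO was at 0.547 TPM and 1.71 CPM against 1.22 TPM and 1.35 CPM in WT, and no direction was read for it.

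**Figure D1:**
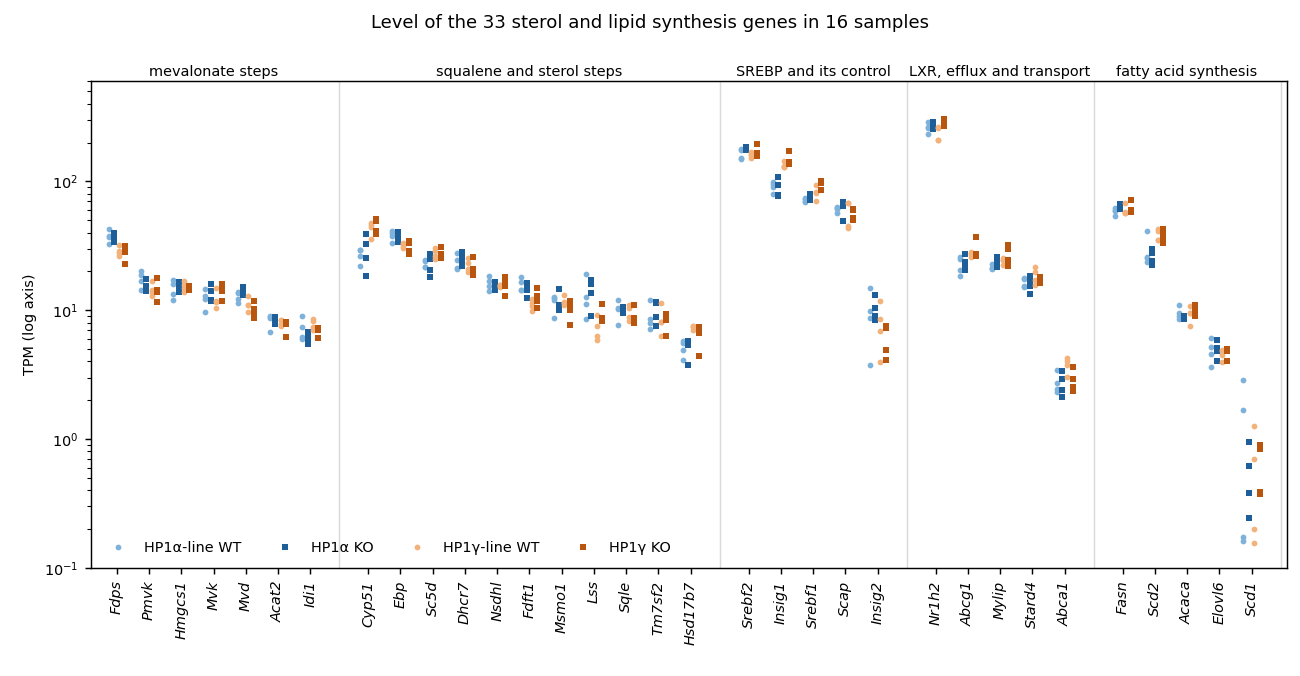
Level of each of the 33 genes in TPM on a log axis, grouped by role and ordered within a role by the mean over all samples. Each point is 1 of the 16 samples, with the 4 groups by colour. Srebf2 and Nr1h2 lie above 149 TPM in every sample, and Scd1 lies below 3 TPM in every sample.

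The first question was whether the loss of HP1α changes this program. No gene of the 33 passed the test between HP1α KO and WT littermates. By edgeR, 0% of the 14881 genes tested were called, and 635 of them (4.27%) but 0 of the 33 had an unadjusted p under 0.05. DESeq2 called 8 genes of the transcriptome and 0 of the 33. The log2 fold changes ran from -0.23 to 0.36, with 16 genes above 0 and 17 below, and their median was -0.0011 against 0.0026 over all genes tested. The median size of the log2 fold change was 0.073, beside 0.090 over all genes.

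These samples set narrow limits for most of the genes. The 95% interval of the log2 fold change stayed within 0.5 of 0 for 29 of the 33 genes and within 1 for 32 of them. The exception to the wider limit was Scd1, with an interval from -1.02 to 1.74. For none of the 33 genes did the 4 KO samples lie apart from the 4 WT samples, a separation that 3.11% of all genes showed.

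The smallest p belonged to Mvd, the decarboxylase of the mevalonate steps. It was at 15.4, 15.9, 14.6 and 15.1 CPM in HP1α KO and at 14.4, 12.6, 12.6 and 14.7 CPM in WT. The lowest KO sample lay just below the highest WT sample, and the log2 fold change of 0.17 (SE 0.0829) had an adjusted p of 0.946. Srebf2 was at 442, 447, 467 and 417 CPM in KO and at 443, 383, 388 and 419.8 CPM in WT (log2 fold change 0.12, SE 0.0619, adjusted p = 0.946). The other genes of the SREBP system also had positive estimates, between 0.0068 for Srebf1 and 0.13 for Insig2, and none of the 5 was called.

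Idi1 was at 9.37, 8.94, 10.7 and 8.79 CPM in HP1α KO and at 11.2, 13.6, 10.5 and 9.00 CPM in WT (log2 fold change -0.23, SE 0.131, adjusted p = 0.946). Scd2 was at 79.5, 85.1, 71.3 and 90.2 CPM in KO and at 86.0, 128, 85.6 and 82.4 CPM in WT (log2 fold change -0.23, SE 0.136, adjusted p = 0.946). Stard4 was at 26.6, 25.7, 25.7 and 28.6 CPM in KO and at 26.8, 34.6, 28.4 and 29.3 CPM in WT (log2 fold change -0.16, SE 0.0854, adjusted p = 0.946). The groups overlapped for each of these 3 genes, and WT replicate 2 held the highest value of all 3. Without that sample the log2 fold changes of Idi1, Scd2 and Stard4 were -0.12, -0.058 and -0.084. Of the 11 squalene and sterol genes, 8 had estimates below 0, and the 11 lay between -0.10 and 0.03. Across the 33 genes the log2 fold change rose with the GC content of the transcript (Spearman correlation 0.553), as it did across 14814 genes (0.393). In other comparisons the 33 genes and all genes did not always go together in this way. The correlations were 0.41 and -0.035 between HP1γ KO and WT, and 0.406 and 0.059 between the WT groups. Between the KO groups they were 0.33 and 0.219, and in the interaction -0.105 and 0.244. Genes are not independent replicates, and a correction for GC content and length was added after seeing the data. With it the log2 fold changes of Srebf2 (0.052), Mvd (0.098), Idi1 (-0.13) and Stard4 (-0.088) were nearer to 0 by more than 1.5 times. That of Scd2 was not nearer to 0, at -0.24.

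**Figure D2:**
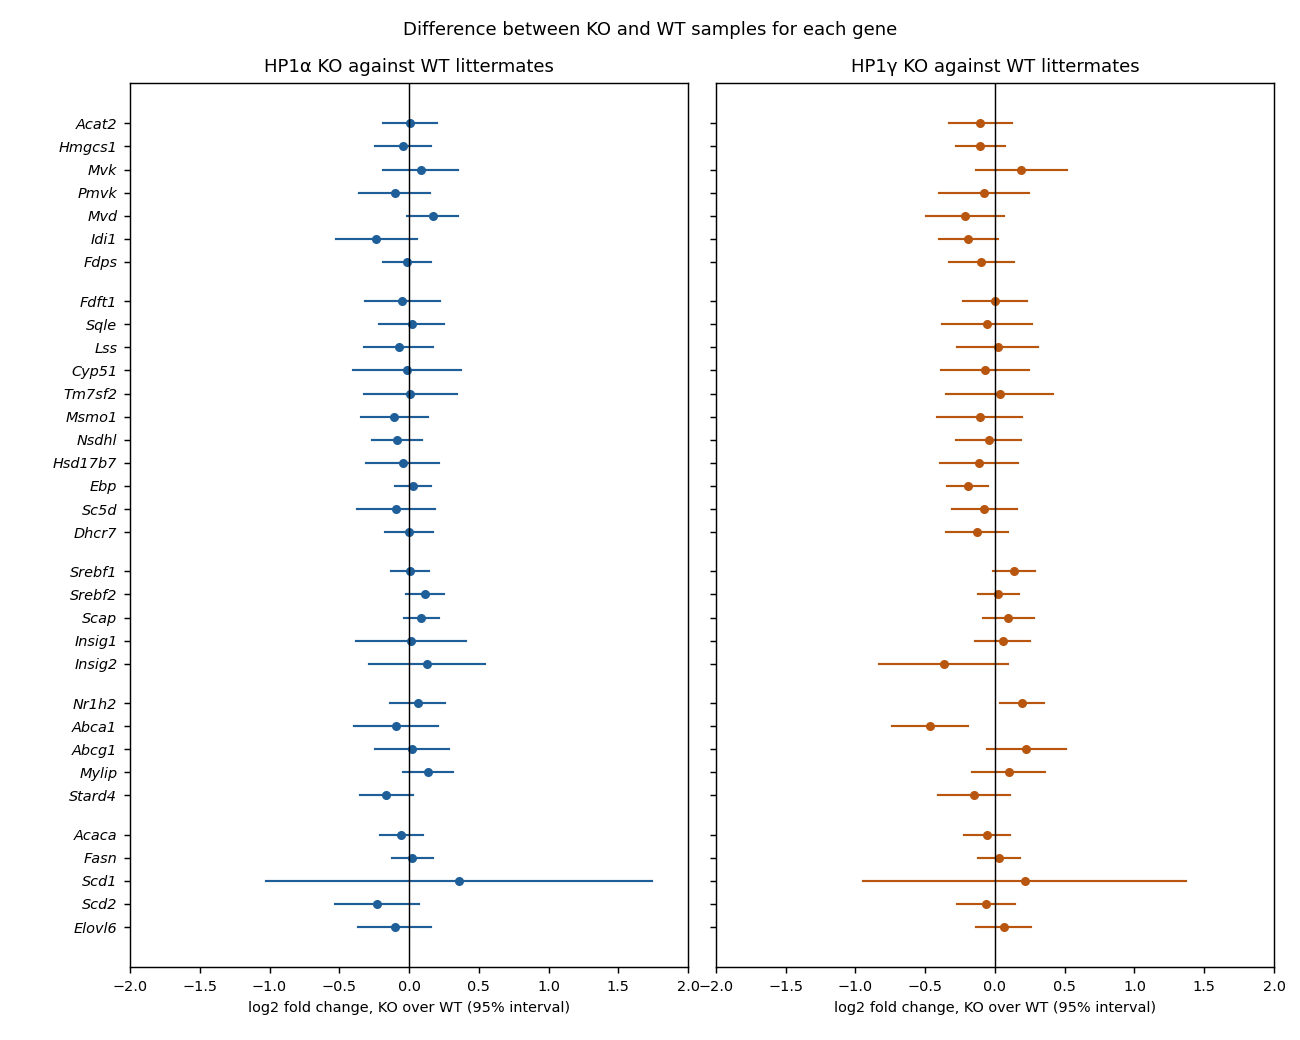
Log2 fold change of KO over WT for each of the 33 genes, in the HP1α line (left) and in the HP1γ line (right), with points for the edgeR estimate and lines for its 95% interval, from 4 KO and 4 WT samples per line. No gene was called in either line, Abca1 in the HP1γ line lies farthest below 0 and Scd1 has the widest interval in both.

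The second question was whether the loss of HP1γ does so. Again no gene of the 33 was called by edgeR between HP1γ KO and WT littermates, where 0.327% of 14975 genes were. An unadjusted p under 0.05 was reached by 3 of the 33 genes, or 9.09%, and by 11.9% of all genes. DESeq2 called 265 genes of the transcriptome and 1 of the 33, Abca1. The log2 fold changes ran from -0.47 to 0.23. The 95% interval stayed within 0.5 of 0 for 28 genes and within 1 for 32.

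Abca1 encodes the pump that hands cholesterol and phospholipid to lipid-poor apolipoprotein. It was at 17.0, 18.1, 16.3 and 14.7 CPM in HP1γ KO and at 18.0, 24.5, 23.6 and 26.5 CPM in WT. The highest KO sample lay just above the lowest WT sample in CPM. The log2 fold change was -0.47 (SE 0.122, 95% interval -0.74 to -0.20), with an adjusted p of 0.208 by edgeR and of 0.0351 by DESeq2. In TPM the highest KO sample was at 3.65 and the lowest WT sample at 3.03. With limma on log2(TPM + 1) the log2 fold change was -0.30 (adjusted p = 0.460). Abcg1, the other LXR-induced pump, had an estimate on the other side of 0, with 114, 113, 87.6 and 79.8 CPM in KO and 93.8, 92.8, 78.2 and 78.1 CPM in WT (log2 fold change 0.23, SE 0.127, adjusted p = 0.508). Nr1h2, which encodes LXRβ itself, was at 197, 202, 201 and 193 CPM in KO and at 162, 164, 185 and 193 CPM in WT (log2 fold change 0.19, SE 0.0710, adjusted p = 0.359).

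Ebp was at 23.7, 23.9, 24.8 and 26.3 CPM in HP1γ KO and at 29.7, 29.5, 27.8 and 27.6 CPM in WT. The groups did not overlap in CPM, yet the log2 fold change of -0.19 (SE 0.0660) had an adjusted p of 0.336. In TPM the Ebp groups overlapped, at 27.4 to 34.7 in KO and 30.3 to 33.3 in WT, and limma on log2(TPM + 1) gave -0.046 (adjusted p = 0.882). Idi1 did not overlap in CPM either, with 10.8, 9.46, 10.5 and 10.6 CPM in KO and 11.4, 13.2, 12.2 and 11.1 CPM in WT (log2 fold change -0.19, SE 0.0956, adjusted p = 0.465). Together with Nr1h2, whose lowest KO sample lay narrowly above the highest WT sample, 3 of the 33 genes (9.09%) had KO and WT samples apart in CPM, beside 7.59% of all genes, and in TPM only Nr1h2 did. Srebf1 was at 115, 119, 119.6 and 107 CPM in KO and at 100.4, 114, 110.5 and 101 CPM in WT (log2 fold change 0.14, SE 0.0679, adjusted p = 0.465).

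Estimates below 0 were given by 6 of the 7 mevalonate genes (median -0.10) and by 9 of the 11 squalene and sterol genes (median -0.072), and none of the 18 was called. Over all 33 genes the median log2 fold change was -0.058, against 0.00050 over all genes tested, with 13 genes above 0 and 20 below. This median was 0.0032 with limma on log2(TPM + 1), and between -0.088 (without WT replicate 3) and -0.026 (without WT replicate 2) with 1 sample left out, so no direction was read from it. Erythroid transcripts varied widely within both groups. Summed over 5 genes they were at 3436, 4210, 277 and 2870 TPM in HP1γ KO and at 142, 1520, 1823 and 227 TPM in WT, with overlap. The 6 myeloid genes summed to between 53.8 and 70.4 TPM in KO and to between 35.4 and 56.8 TPM in WT. Their part in these values was not tested.

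Whether the knockouts differ in their effect was tested as an interaction over all 16 samples. None of the 33 genes was called by edgeR, nor by DESeq2, and 0.0507% of 15776 genes were called by edgeR. An unadjusted p under 0.05 was reached by 2 of the 33 genes, beside 9.58% of all genes. These were Ebp, with a log2 difference between the effects (HP1α minus HP1γ) of 0.23 (SE 0.0770, adjusted p = 0.420), and Mvd, with 0.39 (SE 0.150, adjusted p = 0.440). With limma on log2(TPM + 1) the difference of Ebp was 0.036 (adjusted p = 0.974). Abca1 had a difference of 0.38 (SE 0.192, adjusted p = 0.545), Insig2 of 0.51 (SE 0.285, adjusted p = 0.606) and Srebf1 of -0.12 (SE 0.0897, adjusted p = 0.724). The 95% interval of the difference was within 0.5 of 0 for 24 of the 33 genes.

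The WT groups were then compared between the lines, as a measure of how far these genes vary among mice that have both HP1 proteins. Here 6 of the 33 genes (18.2%) passed the test, in a comparison in which 12.8% of 14804 genes did. Of the 6, 3 were higher and 3 lower in the HP1α line, beside 4.55% of all genes that were higher and 8.25% that were lower. The share of the 33 genes was near that of the transcriptome, so the count says nothing of the set as a whole. The 6 genes are described singly.

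Insig1 and Cyp51 stood lower in HP1α-line WT. Insig1 (chromosome 5, 28276315 to 28283668 on GRCm39) was at 109, 96.8, 137 and 126 CPM in HP1α-line WT and at 195, 196, 165 and 186 CPM in HP1γ-line WT. The groups did not overlap, and the level was 37.2% lower in the HP1α line, a log2 fold change of -0.67 (SE 0.111, adjusted p = 0.00657). Cyp51 (chromosome 5, 4123416 to 4154751) was at 45.0, 40.3, 54.6 and 52.0 CPM against 97.8, 91.1, 64.2 and 70.4 CPM. It was 41.1% lower, a log2 fold change of -0.76 (SE 0.147, adjusted p = 0.0114), and the groups were again apart. Hsd17b7 (chromosome 1, 169777093 to 169796813) was at 10.7, 9.55, 10.9 and 9.76 CPM against 14.8, 15.2, 14.1 and 13.0 CPM, a log2 fold change of -0.49 (SE 0.0971, adjusted p = 0.0123).

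Fdps, Fdft1 and Lss, which act on the way from isoprenoid units to lanosterol, stood higher in HP1α-line WT. Fdft1, the squalene synthase (chromosome 14, 63382189 to 63417027), was at 30.0, 28.1, 23.7 and 23.6 CPM against 17.5, 20.2, 18.6 and 18.8 CPM, 39.0% higher, with a log2 fold change of 0.47 (SE 0.0926, adjusted p = 0.0120). Lss, the lanosterol synthase (chromosome 10, 76367298 to 76392976), was at 27.1, 23.1, 20.2 and 24.5 CPM against 15.0, 15.8, 17.2 and 19.0 CPM. Its log2 fold change was 0.49 (SE 0.107, adjusted p = 0.0179). Fdps (chromosome 3, 89000888 to 89019213) was at 30.3, 25.7, 24.5 and 26.8 CPM against 20.0, 23.2, 18.8 and 20.4 CPM, with a log2 fold change of 0.37 (SE 0.0912, adjusted p = 0.0285). All 3 genes had groups that did not overlap in CPM, whereas those of Lss overlapped in TPM. Sqle, whose enzyme acts between squalene synthase and lanosterol synthase, was not called (log2 fold change 0.05, SE 0.129, adjusted p = 0.834).

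The genes of one pathway thus did not move one way between the lines. Of the 11 squalene and sterol genes, 2 were higher, 2 lower and 7 not called, with a median log2 fold change of 0.050. Samples of the WT groups were apart for 8 of the 33 genes (24.2%), 5 of them higher and 3 lower in the HP1α line, beside 19.6% of all genes, and 5 of the 8 were also apart in TPM. Srebf2 and Srebf1 themselves were not called (log2 fold changes 0.06 and -0.05). Other measures differed between these groups as well. The 3 naive-state genes summed to between 236 and 318 TPM in HP1α-line WT and to between 304 and 438 TPM in HP1γ-line WT, and the 6 myeloid genes to between 45.1 and 95.1 TPM and between 35.4 and 56.8 TPM. Their part in the differences was not tested. None of the 6 had a log2 fold change above 1 in size. Over 16 alternative fits judged by the adjusted p alone, Insig1 and Fdft1 were called in each between the WT groups, whereas Cyp51 lost its call in 1, Hsd17b7 in 3 and Lss and Fdps in 6 each.

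**Figure D3:**
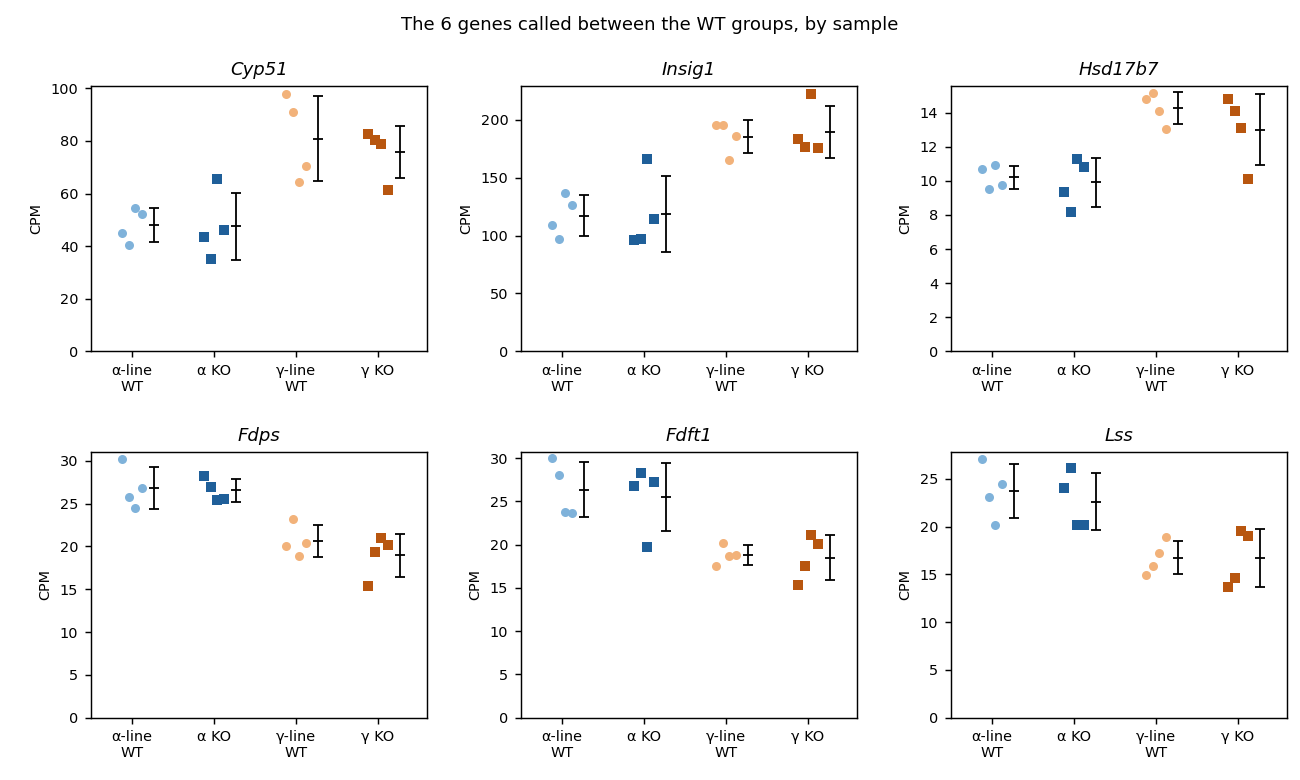
Normalised level (CPM) of the 6 genes called between the WT groups in each of the 4 groups. Points are samples, and bars give the mean and SD of 4 samples. Insig1, Cyp51 and Hsd17b7 have lower means, and Fdps, Fdft1 and Lss higher means, in both groups of the HP1α line than in the corresponding group of the HP1γ line, with overlap between single KO samples.

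Promoters are shown for the 4 of these 6 genes that are in the RefSeq table used, as the 250 bases before the transcription start on the sense strand, with positions on GRCm38.p6, a different build from that of the expression data. Capitals mark matches on either strand to the NF-Y box CCAAT and to the sterol element core CACNCCAC. They are shown because these genes are known targets of SREBP and yet differed in opposite directions.
Insig1, chr5:28071162-28071411, plus strand: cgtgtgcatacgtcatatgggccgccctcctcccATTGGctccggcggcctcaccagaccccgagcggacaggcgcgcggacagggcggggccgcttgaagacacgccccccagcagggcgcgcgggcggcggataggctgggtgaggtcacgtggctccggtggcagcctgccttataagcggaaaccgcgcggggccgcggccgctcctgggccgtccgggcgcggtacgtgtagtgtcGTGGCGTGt
Cyp51, chr5:4104698-4104947, minus strand: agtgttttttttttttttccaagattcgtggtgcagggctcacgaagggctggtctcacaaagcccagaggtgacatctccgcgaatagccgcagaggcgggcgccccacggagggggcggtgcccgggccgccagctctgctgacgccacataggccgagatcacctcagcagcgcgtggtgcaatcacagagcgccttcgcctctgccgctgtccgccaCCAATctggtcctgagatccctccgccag
Hsd17b7, chr1:169969206-169969455, minus strand: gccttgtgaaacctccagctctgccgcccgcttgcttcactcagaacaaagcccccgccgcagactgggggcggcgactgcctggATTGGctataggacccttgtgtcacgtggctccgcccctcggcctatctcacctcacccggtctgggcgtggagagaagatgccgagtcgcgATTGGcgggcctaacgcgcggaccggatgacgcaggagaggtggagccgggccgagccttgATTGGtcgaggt
Lss, chr10:76531355-76531604, plus strand: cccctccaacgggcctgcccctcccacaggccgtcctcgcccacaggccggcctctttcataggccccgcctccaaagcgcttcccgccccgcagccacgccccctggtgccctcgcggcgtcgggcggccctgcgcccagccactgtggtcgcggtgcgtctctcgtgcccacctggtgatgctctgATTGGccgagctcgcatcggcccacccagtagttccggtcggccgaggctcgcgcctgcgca

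All 4 sequences held an NF-Y box, 3 of them in Hsd17b7 and 1 in each of the others, and Insig1 alone held the sterol element core, at the 3′ end of the stretch. Promoters were matched for 26 of the 33 genes, and Scd2, Abcg1, Scd1, Fdft1, Sqle, Stard4 and Fdps were not matched. The NF-Y box was found in 20 of the 26 (76.9%) and in 37.5% of 27025 genes in the table. Those 27025 genes were not limited to genes expressed in these samples, so the shares do not compare like sets. The sterol element core was found in Acat2, Hmgcs1 and Insig1 (11.5%), beside 6.05% of all genes. The E-box CACGTG, read on both strands, was found in 6 of the 26 (23.1%) and in 6.86% of all genes, and the GC box GGGCGG in 21 (80.8%) and in 35.4%. Genes with several starts were counted once, by a match at any start, and matches of different motifs may share letters at their ends. A match is a string of letters in this window and was not tested for binding. Insig1 and Cyp51 share chromosome 5 and lie 24.1 Mb apart.

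The same contrast between lines was made in the KO groups, which share no sample with the WT groups. In this comparison 11 of the 33 genes (33.3%) were called, with 32.8% of 15020 genes. Of the 11, 7 were higher in HP1α KO and 4 lower, and over all genes 16% were higher and 16.8% lower. KO samples of the lines were apart for 9 of the 33 genes (27.3%), 7 higher and 2 lower, beside 32.9% of all genes, and 5 of the 9 were also apart in TPM. Summed over 5 genes, erythroid transcripts were at 119, 152, 536 and 623 TPM in HP1α KO and at 3436, 4210, 277 and 2870 TPM in HP1γ KO. The 6 myeloid genes were at 51.7, 53.1, 129 and 83.2 TPM and at 70.2, 53.8, 60.9 and 70.4 TPM. HP1α KO replicate 3 had the highest myeloid sum of the 16 samples. The part of these transcripts in the differences was not tested. The groups differ here in line and in the HP1 protein lost, which cannot be told apart in this contrast alone.

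Insig1 was at 96.1, 97.2, 166 and 115 CPM in HP1α KO and at 184, 176, 223 and 176 CPM in HP1γ KO, a log2 fold change of -0.70 (SE 0.168, adjusted p = 0.0110). HP1α KO replicate 3 stood close to the HP1γ KO samples but below all 4. Cyp51 was at 43.4, 35.1, 65.5 and 46.1 CPM against 82.5, 80.3, 78.9 and 61.2 CPM, with a log2 fold change of -0.69 (SE 0.174, adjusted p = 0.0131). The same replicate 3 of HP1α KO held the highest value of both genes in its group. Fdps was at 28.3, 26.9, 25.4 and 25.6 CPM against 15.4, 19.3, 21.0 and 20.2 CPM, with a log2 fold change of 0.46 (SE 0.0957, adjusted p = 0.00610).

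Fdft1 had a log2 fold change of 0.44 (SE 0.128, adjusted p = 0.0249), or 0.24 with limma on log2(TPM + 1), and Lss of 0.41 (SE 0.133, adjusted p = 0.0378). For Fdft1 the groups overlapped, since HP1α KO replicate 3 was at 19.8 CPM and the highest HP1γ KO sample at 21.1 CPM. Hsd17b7 was at 9.32, 8.20, 11.3 and 10.8 CPM against 14.8, 14.1, 13.1 and 10.1 CPM and was not called (log2 fold change -0.41, SE 0.147, adjusted p = 0.0529). Of the 6 genes called between the WT groups, all 6 kept their direction between the KO groups and 5 were called there too, or 83.3%. Over the transcriptome, 1853 of 1880 genes called in WT and tested in both kept theirs and 1547 were called in both (82.3% of those called in WT, and 10.6% of the 14568 genes tested in both).

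Further genes were called between the KO groups. Mvd was at 15.4, 15.9, 14.6 and 15.1 CPM in HP1α KO and at 8.62, 9.13, 10.4 and 11.6 CPM in HP1γ KO, 50.8% higher (log2 fold change 0.59, SE 0.101, adjusted p = 0.00303). Ebp was at 32.4, 31.9, 31.1 and 33.7 CPM against 23.7, 23.9, 24.8 and 26.3 CPM (log2 fold change 0.37, SE 0.0625, adjusted p = 0.00305). Insig2 was at 7.22, 6.50, 5.41 and 7.60 CPM against 3.01, 3.03, 3.91 and 4.97 CPM, with a log2 fold change of 0.82 (SE 0.188, adjusted p = 0.00947). It lay on the opposite side from Insig1 between the KO groups. The groups were apart for all 3 of these genes in CPM, whereas those of Ebp overlapped in TPM.

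Scd2 was at 79.5, 85.1, 71.3 and 90.2 CPM in HP1α KO and at 109.8, 129, 107 and 108 CPM in HP1γ KO, with a log2 fold change of -0.50 (SE 0.0872, adjusted p = 0.00321). Stard4 had a log2 fold change of -0.27 (SE 0.0827, adjusted p = 0.0296), or -0.11 with limma on log2(TPM + 1), and Dhcr7 of 0.29 (SE 0.0986, adjusted p = 0.0438). In the WT groups, the log2 fold changes of Mvd, Ebp, Insig2, Dhcr7, Scd2 and Stard4 had the same sign and were not called (0.20, 0.13, 0.30, 0.15, -0.35 and -0.27). That they were called in KO and not in WT does not show a difference between these contrasts, and the interaction, which is that difference, called none of them. None of the 11 had a log2 fold change above 1 in size. Over 16 alternative fits judged by the adjusted p alone, Insig1, Cyp51, Insig2, Mvd, Fdps and Scd2 were called in each between the KO groups, whereas Ebp lost its call in 2, Lss in 7, Fdft1 in 9 and Dhcr7 and Stard4 in 11 each.

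**Figure D4:**
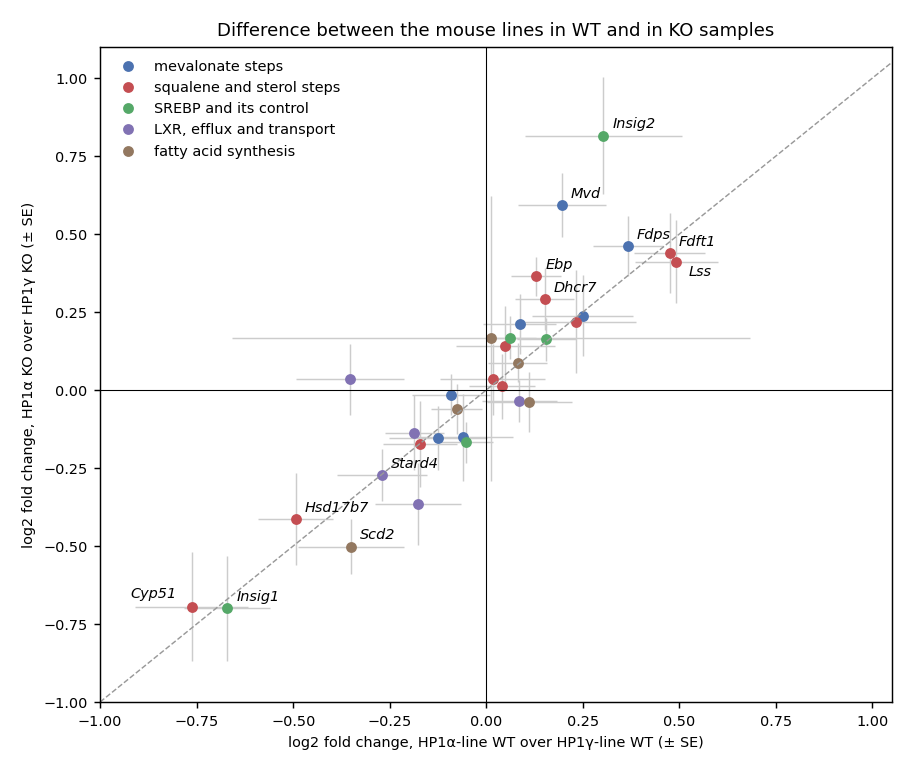
Log2 fold change between the lines in WT samples (horizontal) and in KO samples (vertical) for the 33 genes, with lines for the standard error, colours for the role and names for genes called in either. The dashed line marks equal values. The 6 genes called between the WT groups lie in the quadrants of equal sign, with Insig1 and Cyp51 at the lower left and Fdft1, Lss and Fdps at the upper right.

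Seen over both genotypes, the 8 samples of the HP1α line and the 8 samples of the HP1γ line did not overlap in CPM for 3 of the 33 genes (9.09%), beside 9.03% of 15776 genes. These were Fdps, Lss and Ebp, all higher in the HP1α line. In TPM the lines were apart for Fdps and Insig1 and overlapped for Lss and Ebp. Fdps ranged from 24.5 to 30.3 CPM (median 26.3) in the HP1α line and from 15.4 to 23.2 CPM (median 20.1) in the HP1γ line. Lss ranged from 20.1 to 27.1 CPM (median 23.6) and from 13.6 to 19.5 CPM (median 16.5), and Ebp from 31.0 to 33.7 CPM (median 32.0) and from 23.7 to 29.7 CPM (median 26.9). Insig1 ranged from 96.1 to 166 CPM (median 112) in the HP1α line and from 165 to 223 CPM (median 185) in the HP1γ line, with overlap in CPM at a single pair of samples. Cyp51 ranged from 35.1 to 65.5 CPM (median 45.5) and from 61.2 to 97.8 CPM (median 79.6).

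Genes outside the 33 were counted from 3 lists. The fatty acid and glycerolipid list had 22 genes, the list of cholesterol handling, oxysterol and control genes 27, and the list of other branches from mevalonate 13. No gene of these lists was called in either comparison of KO with WT or in the interaction. Between the WT groups, 1 gene of 21 tested in the fatty acid and glycerolipid list was higher in the HP1α line and 5 were lower, 4 and 2 of 25 in cholesterol handling and 1 and 1 of 13 in the other branches, beside 4.55% of all genes higher and 8.25% lower. Dgat1, which completes triglyceride synthesis, had a log2 fold change of -1.05 between the WT groups (SE 0.203, adjusted p = 0.0117) and of -1.43 between the KO groups (SE 0.218, adjusted p = 0.00207). Acsl4, which activates long-chain polyunsaturated fatty acids, had log2 fold changes of -0.49 (SE 0.0900, adjusted p = 0.00960) and -0.71 (SE 0.126, adjusted p = 0.00348). Elovl1, an elongase of very long chains, had 0.31 (SE 0.0602, adjusted p = 0.0115) and 0.48 (SE 0.0748, adjusted p = 0.00222). Soat1, which esterifies cholesterol, had 0.54 between the WT groups (SE 0.105, adjusted p = 0.0120). Between the KO groups, 5 genes were higher and 6 lower of 21 in the first list, 7 and 4 of 25 in the second and 2 and 1 of 13 in the third, beside 16% of all genes higher and 16.8% lower.

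The 18 enzymes of the mevalonate and sterol steps were also compared with each other within groups. After the group means had been removed, their 153 pairs had a median Pearson correlation of 0.116 over the 16 samples (Spearman 0.121), and 19% of the pairs were above 0.5. For pairs among 15776 genes the median was 0.003, with 7.92% above 0.5. The pairs of the 18 enzymes ran from -0.755 (Hsd17b7 and Dhcr7) to 0.781 (Mvd and Fdps). Cyp51 and Hsd17b7 were at 0.766 with each other, and Fdft1 and Lss at 0.695. Across these 2 pairs the correlations were negative, at -0.668 and -0.649 for Cyp51 and at -0.516 and -0.745 for Hsd17b7. These correlations are a description only, since all genes of a sample share its library and its cell composition.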

How the data were processed

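Splenic memory CD4+ T cells of 16 samples were grouped by line and genotype from the submitters' titles, with 4 samples per group. The treatment field, which describes a cell transfer, was left aside because it goes against the study's account of the memory cells. The authors trimmed the reads, aligned them with STAR to GRCm39 and used Salmon for quantification, all within an nf-core workflow. They deposited estimated counts without normalization, of which 11.6% are not whole, and TPM, which are scaled by transcript length and keep no depth. The study left out an RNA-Seq sample of the HP1γ line for quality, and the labels do not show whether it is among these samples, of which none was left out here.

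Estimated counts were rounded first. Differences were tested with R 4.3.3 and edgeR 4.0.16 (TMM, filterByExpr at a minimum count of 10, estimateDisp, then glmQLFit and glmQLFTest), fitted on all genes that passed the filter, with Benjamini-Hochberg adjustment over them. Each comparison of 2 groups used their 8 samples, and the interaction of line and genotype used all 16. A gene was called at an adjusted p under 0.05, and intervals are at 95%. P-values measure the spread between samples, and the labels do not state that each came from a separate animal. All 24 pairs of replicates within groups differed beyond sampling noise (chi-square per gene of at least 9.88). Depth was between 26694045 and 40199637 counts, and intervals from single samples were not used.

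The genes and lists were chosen with earlier results of these data known. In each comparison the called genes of the 33 are given with their statistics, or else the 5 with the smallest p, and other genes named with values were chosen after these were seen. Alternatives were DESeq2 1.42.0, RLE size factors, no filter on low counts, the replicate number as a block, limma 3.58.1 on log2(TPM + 1) and log2(TPM + 0.1), all 16 samples in one fit, a log2 fold change above 1 as a further criterion, the omission of each sample and, chosen after seeing the data, a correction for GC content and length. Scripts were tested on simulated data. Gene positions are from GENCODE on GRCm39, and promoter sequences from RefSeq on GRCm38.p6.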

Additional observations from a re-analysis of the deposited data

Results flagged for a closer look

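Of 132 values (33 genes in 4 groups), 6 groups held a sample far from the other 3 by Dixon's test, and chance alone gives about 1 in 20. Tm7sf2, a sterol reductase, was at 4.09 CPM in HP1γ KO replicate 1, against 6.20 to 6.61 CPM in the other samples of the group. Scd1 in the same sample was at 2.64 CPM, against 1.08 to 1.23 CPM. Acaca was at 34.3 CPM in HP1γ KO replicate 4, against 39.1 to 39.7 CPM. Scap was at 129.8 CPM in HP1α-line WT replicate 4, against 114 to 116 CPM. Scd2 stood apart in 2 groups, at 128 CPM in HP1α-line WT replicate 2 against 82.4 to 86.0 CPM, and at 129 CPM in HP1γ KO replicate 2 against 107 to 109.8 CPM. None of these genes was called in a comparison of KO with WT.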

How the results depend on the processing

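Of the 33 genes, those called in a comparison, or the 5 with the smallest p where none was called, kept their direction under every alternative run. The median log2 fold change of the 33 genes, near 0 in every comparison, did turn. It went from -0.0011 to 0.028 between HP1α KO and WT and from -0.058 to 0.0032 between HP1γ KO and WT with limma on log2(TPM + 1), from 0.041 to -0.024 between the WT groups without HP1γ-line WT replicate 4, and from 0.0034 to -0.017 in the interaction without HP1γ KO replicate 4. Between HP1α KO and WT and in the interaction, 0 of the 33 genes were called under every alternative, and between HP1γ KO and WT the only call was Abca1 under DESeq2 (1 gene, adjusted p = 0.0351, range 0.0351 to 0.472 over the alternatives), which called 265 genes in all against 49. Between the WT groups, 6 genes became 2 with the replicate number as a block (Fdft1 and Insig1, with 577 against 1896 genes in all), 3 with limma on log2(TPM + 1) (Fdft1, Cyp51 and Insig1, with 1175 in all) and 0 with a log2 fold change above 1 as a further criterion (282 in all). Between the KO groups, 11 genes became 0 under that criterion, which 651 of the 4921 genes in all passed. None of the called genes of the 33 had a log2 fold change above 1 in size in either contrast between lines. The cause of the lower counts with the block and with limma was not tested. Pairing of samples by replicate number requires a correlation of same-numbered deviations over 0.1 in all 4 pairs. This held in 3, 2, 0 and 0 of 4 pairs (HP1α line, HP1γ line, WT groups, KO groups), so the numbers were not used as pairs. In the HP1α line the correlations lay between 0.094 and 0.229, just short of that requirement, and the block called 0 of the 33 genes there.

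With 1 sample left out, 4 to 7 genes were called between the WT groups (573 to 2185 in all) and 7 to 16 between the KO groups (3350 to 5202 in all). Without HP1α KO replicate 1 or HP1γ KO replicate 1 there were 7, namely Mvd, Fdps, Cyp51, Ebp, Insig1, Insig2 and Scd2. Fdps lost its call between the WT groups without HP1α-line WT replicate 1 or 4 or HP1γ-line WT replicate 1 or 3, and Lss without HP1α-line WT replicate 1 or HP1γ-line WT replicate 1 or 2. The median log2 fold change of the 33 genes between the KO groups was 0.034, 0.066 with the correction for GC content and length, and between -0.012 (without HP1γ KO replicate 4) and 0.082 (without HP1γ KO replicate 3) with 1 sample left out.

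With 4 samples a group, differences under about 0.5 on the log2 scale were within the 95% interval for several genes, and Scd1 was measured too low for any statement.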
